A study of Mus musculus with 6 samples.

Results

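Notch1, Notch2 and Notch3, their ligands Jag1, Jag2 and Dll1, and the downstream genes Hes1, Hey1, Hey2 and Heyl were examined in ATAC-seq peak lists of a mouse osteoblast line with and without Fam20c, the kinase that phosphorylates many secreted proteins. Overlapping peaks from the 6 lists, with a shared 1 bp as the minimum, were joined into regions, and a region was assigned to a gene when it overlapped the gene's RefSeq span (GRCm38.p6, the coordinates of mm10) extended by 50 kb on both sides. Of 89410 merged regions, 129 were assigned to the 10 genes, and no region was assigned to a gene by its measured value. The control group, OB Fam20c f/f, is an immortalized line of mouse osteoblasts whose Fam20c alleles are floxed, and it provided 3 libraries. The other group, OB Fam20c KO, was established from that line by infection with a lentivirus carrying Cre recombinase, and it also provided 3 libraries. Both groups share the floxed background and the immortalization. Whether the KO line was 1 clone or a pool, and whether the control line received an empty virus, are not given in the sources used here, so an effect of infection or of growth as a separate line cannot be told apart from the loss of Fam20c. Each library came from 50000 nuclei treated with the Tn5 transposase for 30 min at 37 °C. No label says that the 3 libraries of a group came from separate cultures, so the p-values measure only the spread between these libraries.

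Notch receptors are proteins of the cell surface that are cut by ADAM proteases and γ-secretase once a Jagged or Delta-like ligand on a neighbouring cell binds them. The freed intracellular domain joins the DNA-binding protein Rbpj and a Mastermind-like coactivator in the nucleus, and Hes and Hey genes, which encode transcriptional repressors, are its best known targets. In the osteoblast lineage, Notch signaling is known to hold back differentiation, in part through the action of Hes and Hey proteins on Runx2.

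The lists held 64033, 62781 and 74797 peaks in OB Fam20c f/f replicates 1 to 3, and 64141, 64582 and 32958 peaks in OB Fam20c KO replicates 1 to 3. OB Fam20c KO replicate 3 stands apart with the shortest list, so results that rest on it are given with and without it. Reads per library were not used here, the number of peaks is not a measure of read depth, and why this list is short was not tested. Where a list has no peak, the site did not pass the authors' q threshold in that library. Each library is a bulk sample, so a site less open in all cells and a site open in fewer cells cannot be told apart. Of 12 osteoblast marker genes, 7 had a peak over the start site or within 1 kb of it in all 6 libraries (Runx2, Sp7, Col1a1, Col1a2, Spp1, Sparc and Dlx5), 3 in some libraries (Alpl, Bglap2 and, beside the start site, Dmp1) and 2 in none (Bglap and Ibsp). Among 17 marker genes of endothelial, blood, cartilage, fat and muscle cells, 2 had such a peak in all 6 libraries (Sox9, and Spi1 beside the end of its span) and 9 in none. The f/f libraries had peaks at 6, 6 and 8 of these 17 genes and the KO libraries at 6, 7 and 2, and the part of other cell types in the results was not tested. The start site of Fam20c itself had a peak in all 6 libraries, which does not check a deletion made inside the gene.

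Near the 10 genes, KO replicates 1 and 2 had about as many regions with a peak as the f/f libraries, and KO replicate 3 had far fewer. OB Fam20c f/f replicates 1, 2 and 3 had a peak in 92, 90 and 107 of the 129 regions (mean 96.3 ± 9.29, SD, n = 3). OB Fam20c KO replicates 1, 2 and 3 had a peak in 98, 97 and 51 of them (mean 82.0 ± 26.9, SD, n = 3). KO minus f/f came to -14.3 regions (exact permutation test over the 20 assignments of libraries, two-sided, p = 0.6, where 0.1 is the smallest p that 3 libraries against 3 can give). It turned to 1.17 regions without KO replicate 3 and to 3 regions when the highest 32958 peaks of each list were used, so no direction can be given to it.

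**Figure D1:**
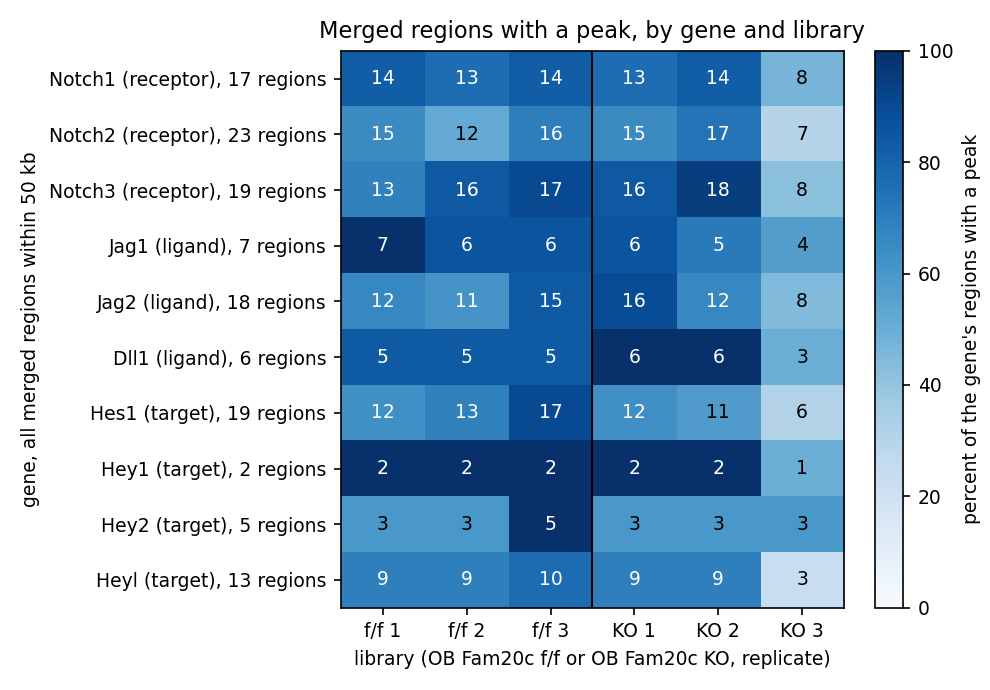
Number of merged regions with a peak near each of the 10 genes (rows, with the total number of regions per gene) in each of the 6 libraries (columns), coloured by the percentage of the gene's regions that had a peak. KO replicate 3 has the lowest number, or shares it, at every gene, and the other 5 libraries are close to each other at most genes.

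Single genes ranged from 2 regions at Hey1 to 23 at Notch2, the gene with the longest span. A peak in all 6 libraries was found in 49 of the 129 regions (38.0%), against 33.4% of all merged regions. Peaks in every library but KO replicate 3 were found in 24 (18.6%, against 19.2% of all regions), and in 1 library alone in 25 (19.4%, against 19.8%). OB Fam20c f/f replicate 3, the longest list, held 11 of these 25 and each other library between 1 and 5. None of these shares stood far from its background.

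Regions only in 1 group were few. A peak in 3 of 3 f/f libraries and in 0 of 3 KO libraries was found in 3 regions (2.33%, against 3.75% of all merged regions), 1 each at Notch2, Hes1 and Heyl. No region had a peak in 3 of 3 KO libraries and in none of the f/f libraries, where 0.179% of all regions did. A further 5 were present in KO replicates 1 and 2 but absent from each f/f list (3.88%, against 2.90% of all regions), 3 of them at Notch2, 1 at Dll1 and 1 at Heyl. With KO replicate 3 left out, these 5 count as KO-only (2.93% of all regions in that setting), beside the 3 f/f-only regions (3.82% of all regions). When each list was shortened to 32958 peaks, 1 of 66 regions was f/f-only (2.83% of all regions in that setting) and 5 were KO-only (2.60% of all regions). The f/f-only region was then that over the Notch1 start site, and the KO-only ones were the start-site regions of Jag2 and Dll1 and a region each at Notch1, Jag2 and Heyl. KO replicate 3 enters that setting with its whole list, weakest peaks included, while the other lists lose theirs.

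Strength was compared by standing, because −log10 q and fold depend on the depth and background of their own library. The list standing of a peak is its percentile by −log10 q among all peaks of its library, with 100 as the highest. The shared standing is the percentile among the 29849 regions present in every library, ranked within each library, and by construction its median over these regions is 50.0 in every library. It was also computed by the authors' fold over local background. Group differences in shared standing were tested with limma on normal scores of the ranks over all 29849 regions, with Benjamini-Hochberg adjustment at 0.05.

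A peak lay over the start site in all 6 libraries at 5 of the 10 genes, Notch2, Jag1, Dll1, Hey1 and Hey2, and in some of the libraries at 4. At Heyl no library had a peak within 1 kb of either end of the span. A gene with more than 1 start site was scored by the one with a peak in the most libraries, also in the comparison below. Dll1 has 2 RefSeq start sites. The scored one lies inside the span, and the one at the upstream end of the span had no peak over it in any library. For comparison, 52.3% of 17492 protein-coding genes with a RefSeq promoter sequence had a peak over a start site in all 6 libraries and 42.6% in none. The strand and start site were taken from RefSeq promoter sequences for 7 of the genes. For Hes1, Hey1 and Heyl, which have none, both ends of the span were used, so they lie outside that comparison set.

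The Notch1 start-site region (chr2:26502859-26503950) had list standings of 51.1, 67.5 and 66.4 in OB Fam20c f/f replicates 1 to 3 and of 32.4 and 26.4 in OB Fam20c KO replicates 1 and 2. KO replicate 3 had no peak there. All f/f values lay above both KO values. Among the 46989 regions shared by the 5 libraries other than KO replicate 3, its standing fell by 33.7 percentile points (limma, adjusted p = 0.0155) and it also fell when these were ranked by fold (limma, adjusted p = 0.0278).

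At Jag2 the opposite order was seen in part. The start-site region (chr12:112928991-112929966) had no peak in f/f replicate 1 and list standings of 18.5 and 0.194 in f/f replicates 2 and 3. In the KO group the list standings were 52.0, 49.7 and 0.866, so replicates 1 and 2 stood above the f/f group and replicate 3 did not. The difference at this region was not tested.

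Notch3 had a start-site region (chr17:32166652-32167154) with no peak in f/f replicate 1 and KO replicate 3. Its list standings of 18.6 and 33.8 in f/f replicates 2 and 3 lay below those of 37.3 and 41.7 in KO replicates 1 and 2. Start-site peaks of Notch2 and Jag1 stood high in their lists. The range at Notch2 was 90.5 to 96.7 in the f/f libraries and 89.4 to 93.4 in the KO libraries. Jag1 stood between 80.5 and 86.1 in all libraries. Hey2 stood between 86.9 and 91.7 in 5 libraries and at 69.5 in KO replicate 3. At Dll1 the list standing was 45.7 to 55.0 in 5 libraries and 3.51 in KO replicate 3.

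**Figure D2:**
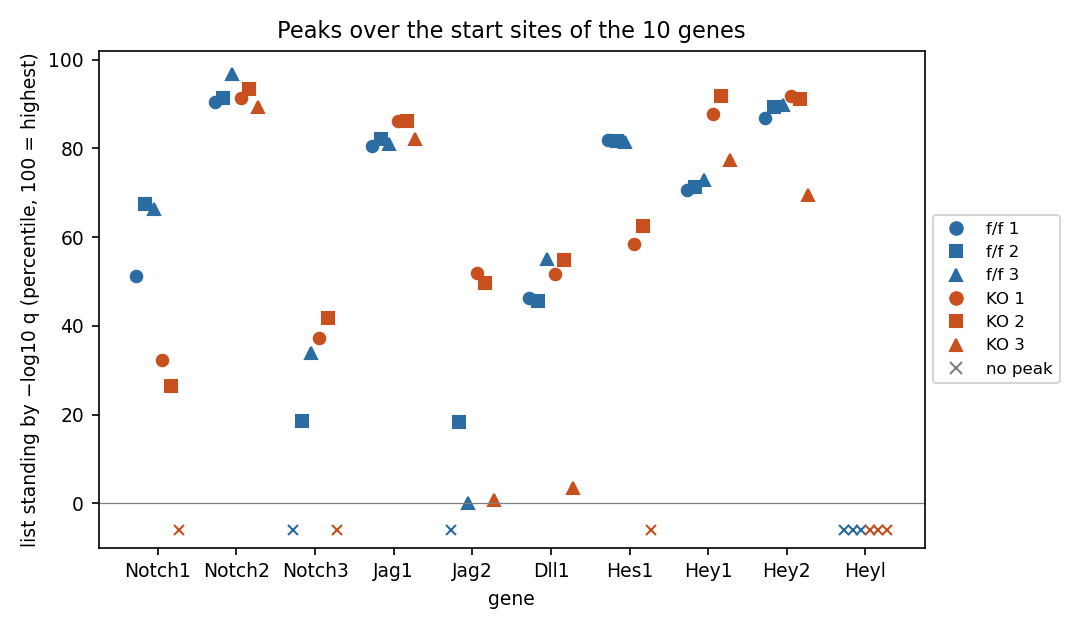
List standing by −log10 q (percentile within each library's own list, 100 as the highest) of the peak over the start site of each gene, with OB Fam20c f/f libraries in blue and OB Fam20c KO libraries in orange, a marker shape per replicate, and crosses under the axis where a library had no peak. At Notch1 and Hes1 the f/f peaks lie above the KO peaks, at Hey1 below them, and at Heyl no library had a peak.

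The sequences of 4 start sites are shown because the peaks over them differed between libraries (Notch1, Jag2), missed the threshold narrowly (Jag1) or held the Rbpj motif (Hey2). That of Notch3, where the peak was also missing in some libraries, is not shown. The 4 sequences run from 250 bases before to 50 bases after the start and come from RefSeq (GRCm38.p6). They read 5′ to 3′ on the strand of the gene, which is the minus strand for all 4. Capitals mark matches on either strand to any of 5 motifs, TGGGAA (the core bound by Rbpj), TGACTCA (AP-1), CACGTG (an E-box bound by Hey proteins), CACNAG (the N-box bound by Hes proteins) and CAGCTG (an E-box). Adjacent or overlapping matches, such as the pair of N-box matches in 1 capital run at Notch1, appear as 1 run.
Notch1, chr2:26503773-26504072: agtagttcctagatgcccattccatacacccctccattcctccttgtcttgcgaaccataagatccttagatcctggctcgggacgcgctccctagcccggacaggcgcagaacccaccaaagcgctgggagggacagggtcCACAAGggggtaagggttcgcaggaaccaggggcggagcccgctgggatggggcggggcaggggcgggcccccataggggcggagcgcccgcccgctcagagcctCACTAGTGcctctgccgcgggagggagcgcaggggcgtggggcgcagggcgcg
Jag1, chr2:137116471-137116770: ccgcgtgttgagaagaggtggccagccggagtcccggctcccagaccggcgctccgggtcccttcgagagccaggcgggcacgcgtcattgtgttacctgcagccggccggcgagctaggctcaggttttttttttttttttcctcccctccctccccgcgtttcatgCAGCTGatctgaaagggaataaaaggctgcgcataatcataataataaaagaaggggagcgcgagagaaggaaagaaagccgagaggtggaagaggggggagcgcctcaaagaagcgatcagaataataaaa
Jag2, chr12:112929446-112929745: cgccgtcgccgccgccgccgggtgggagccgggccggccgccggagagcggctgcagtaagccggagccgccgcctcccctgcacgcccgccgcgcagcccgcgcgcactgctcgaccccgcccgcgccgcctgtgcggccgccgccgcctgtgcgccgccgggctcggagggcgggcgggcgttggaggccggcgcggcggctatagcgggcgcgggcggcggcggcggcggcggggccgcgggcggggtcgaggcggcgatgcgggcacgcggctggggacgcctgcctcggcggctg
Hey2, chr10:30842734-30843033: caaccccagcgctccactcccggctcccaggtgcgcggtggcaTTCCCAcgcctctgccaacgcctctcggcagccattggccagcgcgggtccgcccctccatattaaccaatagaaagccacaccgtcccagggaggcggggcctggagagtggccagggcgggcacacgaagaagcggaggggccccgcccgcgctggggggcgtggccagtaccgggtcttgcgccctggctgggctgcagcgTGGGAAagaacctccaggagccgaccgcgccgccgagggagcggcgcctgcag

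Of the 8 RefSeq promoters found for the 7 genes, only that of Hey2 held the Rbpj core TGGGAA, which occurs there at 2 places, once on each strand, against 25.6% of all 32851 promoters of the same length with at least 1 match. CACNAG was found in 4 of the 8 (42.5% of all promoters) and CAGCTG in 2 (16.3%). TGACTCA and CACGTG were found in none of the 8 (5.20% and 7.15% of all promoters). The Jag2 promoter, with 86.0% G and C, held none of the 5 motifs, and the Jag1 promoter had 55.7% G and C. The median over all promoters was 52.7%. These matches describe letters in a window and do not say whether a factor binds there.

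Over the 49 shared regions the groups differed at 13 by limma, 7 lower and 6 higher in OB Fam20c KO. The 7 lower regions are 14.3% of the 49, where 10.3% of all 29849 regions were lower, and the 6 higher ones are 12.2%, where 12.2% of all were higher. The 10 genes as a list were therefore close to the background. All 3 KO libraries stood below all 3 f/f libraries in 10 regions (20.9% of all shared regions did so) and above them in 12 (21.1% of all). The median shared standing of the 49 regions was 43.5, 50.8 and 47.6 in the f/f libraries and 50.9, 46.5 and 50.3 in the KO libraries. Of the 7 lower regions, 4 were at Hes1 and 1 each at Notch2, Notch3 and Hey2. The 6 higher regions lay at Notch1, Notch3, Jag2 (2 regions), Hey1 and Heyl.

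**Figure D3:**
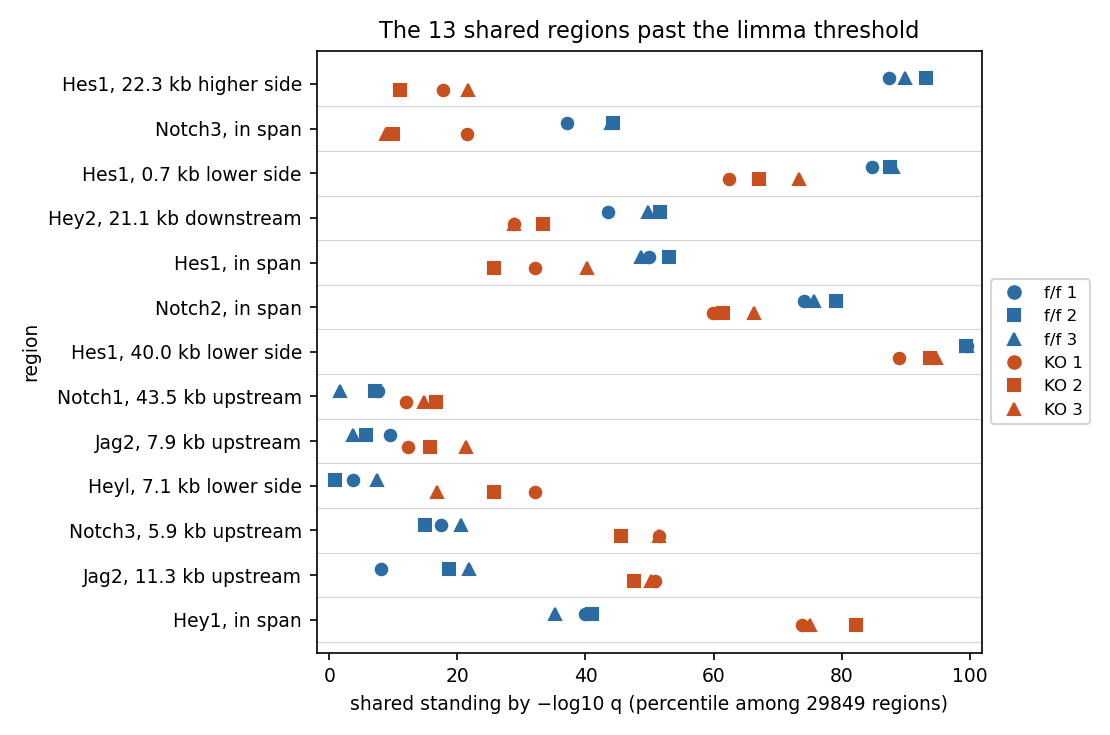
Shared standing by −log10 q (percentile among 29849 regions, 100 as the highest) in each library for the 13 regions near the 10 genes that passed the limma threshold, ordered by KO minus f/f, with f/f libraries in blue, KO libraries in orange and a marker shape per replicate. The region 22.3 kb on the higher side of Hes1 drops from a mean of 90.2 to 16.9, and the groups do not overlap in any of the 13, which the test favours.

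Among the receptors, Notch1, known for its part in T-cell development, had 17 regions, with peaks in 14, 13 and 14 of them in OB Fam20c f/f and 13, 14 and 8 in OB Fam20c KO. Its highest region in standing (chr2:26444767-26446429) lay downstream in the neighbouring gene Sec16a, at shared standings of 86.9, 88.3 and 84.8 in f/f and 87.7, 87.2 and 92.6 in KO, and did not pass (limma, adjusted p = 0.491). The 1 shared Notch1 region past the threshold (chr2:26547288-26547923) lay 43466 bp upstream of the span. Its shared standing was low throughout, 7.54, 7.10 and 1.72 in f/f and 11.9, 16.6 and 14.8 in KO, and it rose by 9.0 points (limma, adjusted p = 0.0431). This call was kept without KO replicate 3 but lost without any 1 of the other 5 libraries, where the limma adjusted p reached 0.117.

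Notch2, the receptor that carries mutations in Hajdu-Cheney syndrome, a disorder of bone loss, had the most regions, 23, of which 18 lay inside its own span. The f/f libraries had peaks in 15, 12 and 16 of them and the KO libraries in 15, 17 and 7. Within the span, a region 42586 bp from the start site (chr3:98056124-98057634) had shared standings of 74.1, 79.2 and 75.7 in f/f and 59.9, 61.5 and 66.3 in KO, and fell by 13.7 points (limma, adjusted p = 0.0383). By fold the same region gave a difference of -3.69 points (limma, adjusted p = 0.834), and the call was lost without any 1 library other than KO replicate 3 (limma, adjusted p of up to 0.12). The f/f-only region of Notch2 (chr3:98079735-98080036, inside the span) was 302 bp wide and weak, with list standings of 12.8, 27.6 and 18.6. The 3 regions found in KO replicates 1 and 2 alone had list standings of 14.9 to 33.4, and 2 of them lay inside the span. The start-site region differed by 0.816 points (limma, adjusted p = 0.966).

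Notch3, a receptor of vascular smooth muscle, was the 1 gene of the 10 with calls in both directions. A region inside its span, 23141 bp from the start site (chr17:32143052-32143749), had shared standings of 37.1, 44.2 and 44 in f/f and 21.6, 9.87 and 8.81 in KO. It fell by 28.4 points (limma, adjusted p = 0.00451), and by fold it fell by 42.6 points (limma, adjusted p = 0.0349). A second region lay 5904 bp upstream of the span (chr17:32172800-32173739), with shared standings of 17.4, 14.9 and 20.5 in f/f and 51.5, 45.6 and 51.5 in KO. It rose by 31.9 points (limma, adjusted p = 0.00114), and the difference by fold was 32.8 points (limma, adjusted p = 0.0598). The groups were apart at both regions in all libraries, and both calls were kept in each of the 6 fits that left out 1 library. The highest region of Notch3 (chr17:32091008-32092480) stood between 90.1 and 96.5 in all 6 libraries.

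The ligand genes held no f/f-only and no KO-only region. Jag1, which encodes the ligand that is mutated in Alagille syndrome, had 7 regions, with peaks in 7, 6 and 6 of them in f/f and in 6, 5 and 4 in KO. Its start-site region (chr2:137116053-137117718) was also its highest, at shared standings of 58.5, 62.7 and 53.1 in f/f and 70.2, 69.9 and 80.4 in KO. All KO values lay above all f/f values, but the difference of 15.4 points did not pass (limma, adjusted p = 0.0506).

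At Jag2, a paralog of Jag1, a pair of shared regions upstream of the gene rose, and both lay inside the span of the neighbouring gene Nudt14, so that they cannot be assigned to Jag2 by position alone. The farther one, 11256 bp from the span (chr12:112941068-112942532), had shared standings of 8.06, 18.7 and 21.8 in f/f and 50.9, 47.6 and 50.3 in KO, a rise of 33.4 points (limma, adjusted p = 0.00338). The authors' fold at its summit was 4.96, 5.22 and 6.6 in f/f and 10.1, 10.1 and 5.77 in KO. The difference in standing by fold was 28.3 points (limma, adjusted p = 0.0563). The nearer one, 7885 bp from the span (chr12:112937697-112938449), rose by 10.2 points (limma, adjusted p = 0.0283) and lost its call without f/f replicate 2, f/f replicate 3 or KO replicate 2 (limma, adjusted p of up to 0.114). The highest Jag2 region (chr12:112950031-112951089) had shared standings of 62.0 to 68.4 in f/f and 58.0 to 68.2 in KO. In all, Jag2 had 18 regions, with peaks in 12, 11 and 15 of them in f/f and in 16, 12 and 8 in KO.

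Dll1, a Delta-like ligand needed for the segmentation of somites, had 6 regions, with peaks in 5 of them in each f/f library and in 6, 6 and 3 in KO. The highest (chr17:15395579-15396830) lay 18647 bp upstream of the span in the gene Fam120b, with shared standings of 97.7, 91.7 and 96.2 in f/f and 91.8, 90.6 and 88.1 in KO, and the groups overlapped. Its start-site region (chr17:15375330-15376670) stood at 12.0, 10.8 and 11.9 in f/f and at 12.5, 14.1 and 1.59 in KO. Neither passed the threshold (limma, adjusted p = 0.0966 and 0.486), though the first did without f/f replicate 2 (limma, adjusted p = 0.036). A region downstream (chr17:15356631-15357592) had no peak in KO replicate 3, and over the 46989 regions shared by the other 5 libraries it rose by 21.5 points (limma, adjusted p = 0.0292), but not by fold (limma, adjusted p = 0.181).

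Hes1, the repressor gene most often read as a Notch target, stood out among the 10 genes by a single region. This region (chr16:30090139-30090961) lay 22343 bp beyond the higher-coordinate end of the Hes1 span and in no gene span, and its summits fell within 94 bp of each other in the 6 libraries. Its shared standing was 87.4, 93.2 and 89.9 in OB Fam20c f/f and 17.8, 11.1 and 21.7 in OB Fam20c KO. The authors' −log10 q at its summit was 160, 217 and 298 in f/f and 39.2, 38.3 and 7.38 in KO. Their fold over local background was 14.7, 13.2 and 14.6 in f/f and 9.44, 8.94 and 4.56 in KO. The peaks were 668, 808 and 805 bp wide in f/f and 552, 566 and 281 bp wide in KO. By each of these measures all KO libraries lay below all f/f libraries.

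The standing of this region fell by 73.3 points, from 90.2 ± 2.89 to 16.9 ± 5.37 (SD, n = 3 in each group, limma across all regions, adjusted p = 0.000129). By fold it fell by 59.2 points, from 91.5 ± 3.80 to 32.3 ± 4.01 (SD, n = 3, limma, adjusted p = 0.0106). Ranked by the size of the fall, it was number 1 of the 29849 shared regions by −log10 q and number 10 by fold. By list standing it was number 6, and over the 46989 regions shared without KO replicate 3 it was number 18, with a fall of 55.0 points (limma, adjusted p = 0.00344). Its call was kept in all 6 fits that left out a library, where the highest adjusted p was 0.00219. These ranks were looked up after its value was seen and are a description.

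The other Hes1 regions differed in a way that depended on the measure. Hes1 lies between 20 and 40 Mb of chromosome 16, a segment known from earlier results of these data for f/f-only regions, which made up 178 of its 1629 regions (10.9%). In that segment 269 of 343 shared regions (78.4%) were lower in KO by −log10 q, but 4 (1.17%) were lower by fold, and the median difference was -18.9 points by −log10 q and -0.514 points by fold. At Hes1, the region 40040 bp below the span (chr16:30024399-30025317), which had the highest mean standing of all regions near the gene, went from 99.6, 99.4 and 99.6 in f/f to 89.0, 93.8 and 94.7 in KO, a fall of 7.05 points (limma, adjusted p = 0.000823). The region 672 bp below the span (chr16:30063057-30064685) went from 84.8, 87.6 and 88.0 to 62.4, 67.0 and 73.3, a fall of 19.2 points (limma, adjusted p = 0.00646). Inside the span another region (chr16:30066053-30067249), named outside the rule for named regions, fell by 17.9 points (limma, adjusted p = 0.0337), a call that was lost without any 1 library other than KO replicate 3 (limma, adjusted p of up to 0.123). By fold these 3 differed by 0.314, 7.23 and 0.366 points, and none passed (limma, adjusted p = 0.806, 0.706 and 0.998).

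The region over the lower end of the Hes1 span (chr16:30065065-30065442) had no peak in KO replicate 3. Its list standings were 82.0, 81.6 and 81.4 in f/f and 58.4 and 62.4 in KO replicates 1 and 2. Over the regions shared by these 5 libraries it fell by 27.4 points (limma, adjusted p = 0.0113), and by fold it did not pass (limma, adjusted p = 0.239). The f/f-only region of Hes1 (chr16:30083188-30084042) lay 15392 bp beyond the higher end of the span, at low list standings of 3.93, 7.09 and 25.5. Of the 6 shared Hes1 regions, 2 went the other way, and neither passed. The region 1868 bp beyond the higher end (chr16:30069664-30071069) had shared standings of 48.7, 59.0 and 53.0 in f/f and 70.9, 64.2 and 66.0 in KO (limma, adjusted p = 0.0692), and by fold without KO replicate 3 it passed (limma, adjusted p = 0.0281).

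**Figure D4:**
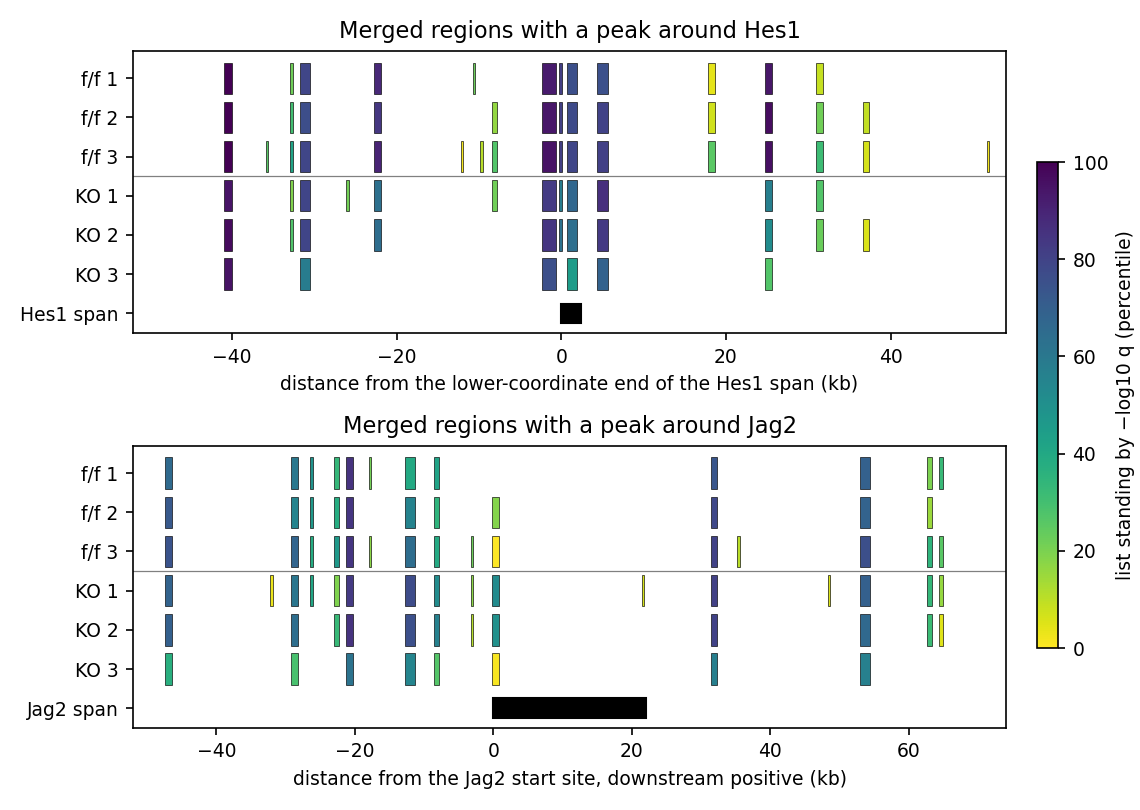
Merged regions with a peak around Hes1 (top, distance in kb from the lower-coordinate end of its span) and Jag2 (bottom, distance in kb from its start site, downstream positive), in 1 row per library, each box as wide as the merged region and coloured by the list standing of the library's peak by −log10 q, with the gene span in black. Around Hes1 the region near 25 kb is darker in the 3 f/f rows than in the KO rows, and around Jag2 the start-site box is absent in f/f replicate 1.

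In the median over the 6 shared regions of Hes1, the standing by −log10 q was 70.4, 73.3 and 70.5 in f/f and 59.1, 60.02 and 60.08 in KO, a difference of -11.7 points (exact permutation test, two-sided, p = 0.1, the smallest possible). By fold the same median differed by 8.55 points (exact permutation test, p = 0.3), and with a window of 10 kb, which holds 3 shared regions, it differed by 10.2 points by −log10 q (exact permutation test, p = 0.1). The median over the 43 shared regions of the other 9 genes differed by 5.09 points (exact permutation test, p = 0.2). The median of the differences of single regions was -12.5 points at Hes1, -0.280 points at the other 9 genes and -0.240 points over all shared regions. Hes1 had peaks in 12, 13 and 17 of its 19 regions in f/f and in 12, 11 and 6 in KO, a difference of -4.33 regions (exact permutation test, p = 0.2) that was -2.50 regions without KO replicate 3 and -0.667 regions (exact permutation test, p = 1) with equal numbers of peaks.

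**Figure D5:**
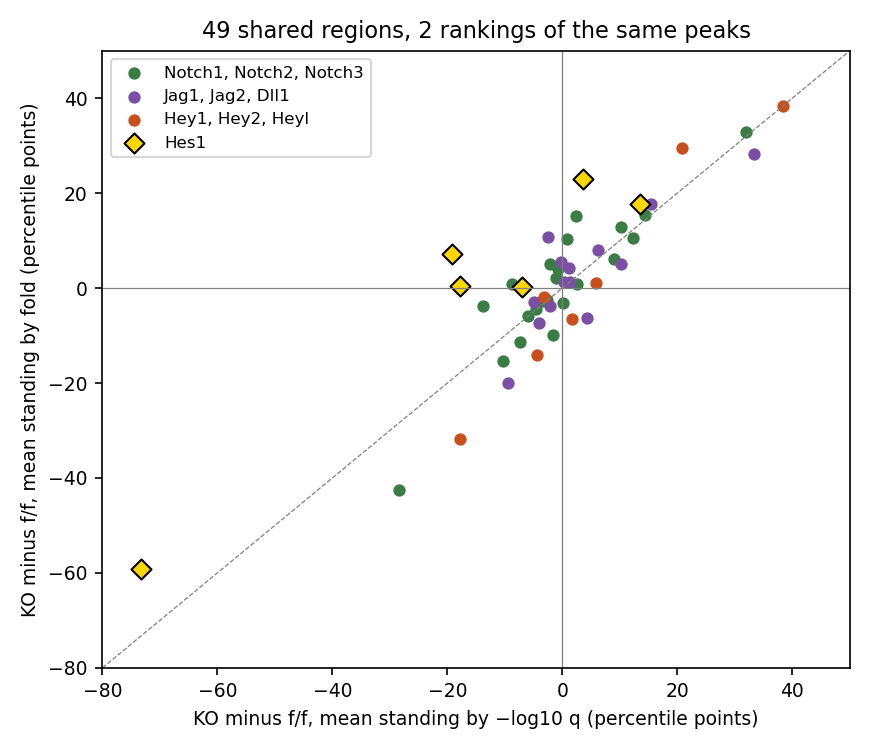
KO minus f/f difference in mean shared standing, in percentile points, by −log10 q (horizontal) and by fold over local background (vertical) for the 49 shared regions, coloured by the role of the gene, with Hes1 as diamonds and equality as a dashed line. The Hes1 region at -73.3 and -59.2 lies far from all others, while 3 further Hes1 regions are below 0 on the horizontal axis and at or above 0 on the vertical.

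Hey1, a repressor gene with 2 regions, rose over the higher-coordinate end of its span. The region (chr3:8666695-8668168) overlaps the end of the Hey1 span and the predicted gene LOC115489673 beside it, and it had shared standings of 39.9, 41.1 and 35.2 in f/f and 73.8, 82.2 and 75.02 in KO. The authors' fold was 7.25, 6.25 and 6.53 in f/f and 10.95, 13.2 and 7.78 in KO. No KO library fell within the f/f range on either scale. The standing rose by 38.3 points (limma, adjusted p = 0.000903), the largest rise among the 49 regions, and by fold it rose by 38.3 points too (limma, adjusted p = 0.0348). It was number 156 of 29849 from the top by −log10 q and number 175 by fold. Its call was kept in all 6 fits that left out a library. By list standing the difference was 14.0 points and did not pass (limma, adjusted p = 0.367). The second Hey1 region, inside the span (chr3:8664628-8665052), had list standings of 47.8, 44.9 and 58.2 in f/f and 52.4 and 44.5 in KO replicates 1 and 2, which overlap.

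Hey2, a related repressor known from heart and vessel development, had 5 regions, with peaks in 3, 3 and 5 in f/f and in 3 in each KO library, the 1 gene where KO replicate 3 was not short. Its start-site region (chr10:30842381-30843284), over the promoter shown with the Rbpj motifs, had shared standings of 72.0, 77.8 and 74.4 in f/f and 82.2, 80.7 and 66.5 in KO (limma, adjusted p = 0.768). A region 21149 bp downstream of the span (chr10:30810177-30811210) went from 43.5, 51.6 and 49.8 to 28.9, 33.4 and 28.9, a fall of 17.9 points (limma, adjusted p = 0.0208). Its call was lost without f/f replicate 2, f/f replicate 3 or KO replicate 1 (limma, adjusted p of up to 0.0813), and by fold the difference was -31.9 points (limma, adjusted p = 0.0587). The highest region, 28211 bp downstream in Ncoa7 (chr10:30802395-30804148), stood at 79.8 to 87.3 in f/f and 87.9 to 92.3 in KO, and did not pass (limma, adjusted p = 0.162).

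Heyl, a Hey-type gene known from the smooth muscle of vessels, had 13 regions and no peak at either end of its span. The f/f libraries had peaks in 9, 9 and 10 regions and the KO libraries in 9, 9 and 3. A region 7084 bp below the span (chr4:123225795-123226472) had shared standings of 3.65, 0.945 and 7.46 in f/f and 32.1, 25.7 and 16.8 in KO, a rise of 20.8 points (limma, adjusted p = 0.00691). By fold the libraries overlapped, since f/f replicate 3 at 27.7 stood above KO replicate 3 at 24.3, and the rise of 29.6 points did not pass (limma, adjusted p = 0.116). The f/f-only region (chr4:123200649-123201447) lay 32109 bp below the span inside Nt5c1a, at list standings of 31.9, 36 and 46.5. The highest region by list standing (chr4:123282379-123283053), in Pabpc4, had values of 73.1, 78.3 and 83.0 in f/f and 68.6 and 80.8 in KO replicates 1 and 2, with no peak in KO replicate 3.

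By fold in place of −log10 q, 3 of the 13 calls were kept. These were the falls at Hes1 (22343 bp from its span) and inside Notch3, with 1.32% of all 29849 regions lower by fold, and the rise at Hey1, with 1.49% higher. By list standing, 2 of the 13 calls were kept, the Hes1 regions at 22343 and 40040 bp (limma, adjusted p = 0.0317 and 0.0494), with 0.265% of all regions lower and 0.0335% higher. Leaving out each library in turn kept 8 of the 13 calls in all 6 fits. These were the falls at 3 Hes1 regions and 1 Notch3 region, and the rises upstream of Notch3, at the farther Jag2 region, at Hey1 and at Heyl. Over the 46989 regions shared without KO replicate 3, which include 73 near the 10 genes, 8 were lower (7.86% of all) and 7 higher (8.01% of all), and 10 of the 13 calls were kept. In that setting 17 of the 73 had both KO libraries below all f/f libraries (26.3% of all) and 20 had them above (25.6% of all), and by fold 3 were lower (5.34% of all) and 5 higher (5.15% of all). The Notch1, Notch2 and Hey2 calls were then lost (limma, adjusted p = 0.0849, 0.0629 and 0.105). Of the 8 falls in this setting, 6 were at Hes1, and no Hes1 region passed as higher by −log10 q.

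The other genes of the pathway were counted for comparison in a list of 35, from further receptors and ligands to γ-secretase subunits, the Fringe enzymes that modify the receptors, Rbpj and its coactivators. They had 491 regions, of which the f/f libraries had a peak in 349, 349 and 416 and the KO libraries in 367, 367 and 208. Among these regions 15 were f/f-only (3.05%, against 3.75% of all merged regions), at 11 genes (Hes5, Hes7, Rbpj, Maml1, Lfng, Rfng, Aph1b, Aph1c, Numbl, Nrarp and Poglut1). Aph1b and Aph1c are neighbours and share regions. No region of the list was KO-only with all libraries. Of 202 shared regions, 16 (7.92%) were lower and 18 (8.91%) higher in KO by limma, against 10.3% and 12.2% of all shared regions. A peak lay over the start site in all 6 libraries at 28 of the 35 genes, against 52.3% of protein-coding genes with a RefSeq promoter sequence. Pathway genes without such a sequence were scored at both ends of the span. At Dlk1, Hes5 and Hes7 no peak lay within 1 kb. Start-site regions of the list past the limma threshold of 0.05 were lower at Dll4 and Poglut1 and higher at Maml3, Rfng, Adam10 and Pofut1. Poglut1, an enzyme that glycosylates Notch receptors, lies in the same segment of chromosome 16 as Hes1. Its start-site region had shared standings of 91.5, 90.0 and 92.9 in f/f and 70.6, 68.1 and 44.6 in KO (limma, adjusted p = 0.00362). That call is by −log10 q, by which 78.4% of the segment's shared regions were lower, against 1.17% by fold. The result by fold at Poglut1 is not given here.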

How the data were processed

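The authors trimmed the reads, aligned them to mm10 with BWA and ran MACS2 2.1.2 with a q-value limit of 0.05, giving 1 list per library. The treatment of duplicate reads is not given in the sources used here. The deposited lists hold, for each peak, the fold at the summit over local background (a ratio), the −log10 p and −log10 q, and a score that is the whole part of 10 times the −log10 q and was not used. Reads per region were not used here, so presence and standing were compared, and not read number.

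Groups and replicate numbers came from the labels. Joining, ranking and permutation tests were done in Python 3.11.15 (pandas 2.3.3, scipy 1.17.1), and limma 3.58.1 in R 4.3.3 was fitted to normal scores over all shared regions. The joining and the limma fit were run on simulated data with known answers. No simulated library had a shortened list or a spread of its own, so the short list of KO replicate 3 was not covered. Named for each gene were the start-site region, the region with the highest mean standing, regions of 1 group and up to 3 shared regions past the threshold. The genes, lists and tests were chosen with earlier results of these data known, so nothing here is independent support for them. 1 gene each of the osteoblast and pathway lists is not reported here. Gene spans came from RefSeq. Alternatives were other minimums, equal list lengths, other overlaps and windows, ranks by fold or list, a replicate block and leaving out each library.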

Additional observations from a re-analysis of the deposited data

How the results depend on the processing

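The values are KO minus f/f. With equal numbers of peaks per list, the difference in regions with a peak turned to 3. In that setting 1 region was f/f-only and 5 were KO-only, against 2.83% and 2.60% of all regions. Leaving out each library in turn gave -22.3 to 1.17 for that difference (1.17 without KO replicate 3), -5.50 to -2.50 at Hes1 (-0.667 with equal numbers), 3 to 6 f/f-only regions (6 without f/f replicate 2, KO replicate 1 or KO replicate 2) and 0 to 5 KO-only regions (5 without KO replicate 3). A window of 10 kb gave 1 f/f-only region of 60 and one of 100 kb gave 5 of 212, against 3.75% of all merged regions. Peaks in at least 2 of 3 libraries gave 6 f/f-only and 5 KO-only regions of 129. The share of all regions was not computed for this setting or for leaving out libraries other than KO replicate 3. Those counts therefore cannot be set against a background.

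The percentages in brackets are the shares of all shared regions called in the same direction and fit. By limma, the 7 lower regions (10.3%) became 2 by fold (1.32%), 2 by list rank (0.265%), 2 by log2 fold (1.25%), 4 of 27 at 10 kb, 11 of 73 at 100 kb and 4 to 7 without 1 library (5.09% to 13.3%, 4 without f/f replicate 3 or KO replicate 1). The 6 higher ones (12.2%) became 1 (1.49%), 0 (0.0335%) and 2 (1.82%) by the first 3 and 4 to 6 without 1 library (7.21% to 13.7%). Higher calls numbered 4 of 27 at 10 kb and 9 of 73 at 100 kb. The Hes1 median turned to 8.55 by fold and to 10.2 at 10 kb, and held at -12.2 to -10.7 without 1 library. The median of the other 9 genes turned to -0.298 by fold and -5.52 by list rank and stayed at 3.61 to 6.54 without 1 library.

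Regions that turned were mostly those with small differences. By list rank, the Notch1 region in Sec16a gave -0.225, the Notch2 start site -1.44 and the Hey2 start site -4.58. By fold, the highest Notch3 region gave 2.06, the highest Jag2 region 10.8, the Hes1 regions at 40040 bp and 672 bp 0.314 and 7.23, and the Hey2 start site -6.59. On the log2 fold scale these 5 gave 0.16, 0.17, 0.14, 0.13 and -0.055, and the highest Dll1 region gave 0.021. Over the regions shared without KO replicate 3, an alternative added after the data were seen, the Notch2, Jag2 and Dll1 regions gave -0.481, 0.116 and 7.66. Without 1 library, the Notch2 start site ranged from -1.52 to 4.49, the highest Notch3 region from -2.70 to 0.470, the highest Jag2 region from -4.97 to 0.118, the Dll1 start site from -4.53 to 1.72 and the Hey2 start site from -1.12 to 6.74. Of these, the pair at Hes1 had passed the threshold by −log10 q.

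No label says whether replicate numbers pair the libraries. Deviations from the group mean correlated at 0.0486, -0.122 and -0.138 between same-numbered libraries and at -0.152 to 0.182 between the others. With 3 libraries per group these values cannot decide whether the libraries were paired. With the replicate block, limma called 5 lower (9.02% of all 29849 regions) and 5 higher regions (10.5% of all). It lost 1 call each at Notch2, Jag2 and Hes1 (limma, adjusted p = 0.0758, 0.0526 and 0.0607). With the block, the differences of -14.3 and -4.33 regions and -11.7 and 5.09 points had exact permutation p = 1, 0.5, 0.25 and 0.25, where 0.25 is the smallest possible. The required overlap of 50% could change no value as first defined, since each peak lies inside its region. Why the list of KO replicate 3 is the shortest was not tested.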
